A study of Homo sapiens with 6 samples.

Results

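The 10 MAP kinase phosphatases of the dual-specificity phosphatase (DUSP) family were followed in HaCaT, a line of immortal human skin keratinocytes labelled wild type. They were chosen by gene name (DUSP1, DUSP2, DUSP4, DUSP5, DUSP6, DUSP7, DUSP8, DUSP9, DUSP10 and DUSP16), and all 10 were found among the 58735 genes of the expression table. RNA was sequenced from 3 control samples and 3 samples treated for 48 h with dacomitinib, a drug that binds covalently to EGFR and related receptor tyrosine kinases and blocks them, to find pathways that differ. Treatment began at 70% confluence. The design text places 0.1% DMSO with the experimental group, and neither the drug dose nor what the controls received is stated in those texts. All samples come from 1 cell line, and no label says that the samples of a group were separate cultures, so the p-values reflect only how these samples vary, possibly for technical reasons.

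MAP kinase phosphatases switch MAP kinases off by removing the phosphates from both the threonine and the tyrosine of the activation loop. Members differ in the kinases they prefer (ERK, JNK or p38) and in where they sit in the cell, and several are transcribed in response to the pathway they restrain, which makes them negative feedback genes. In keratinocytes, EGFR signalling through RAS and ERK is a main drive for proliferation, and DUSP6 RNA is widely used as a readout of ERK activity.

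Libraries held 14960650 to 16179273 fragments on genes. Correlations of log2 values across genes were 0.970 to 0.979 within groups and 0.870 to 0.888 between groups (genes are not independent replicates). All 7 keratinocyte markers examined, among them KRT5, KRT14 and TP63, passed the expression limit of a mean of 1 FPKM (fragment counts divided by the length of the gene and the size of the library). Their summed FPKM was 1091 to 1157 in controls and 802 to 915 with dacomitinib, but these markers did not all move the same way. In the limma test described below, 5 fell and 1 rose, against 34.8% lower and 25.4% higher over all tested genes. With TPM, 2 fell and 2 rose, against 19.8% and 42.0%. CDH1 rose from a mean of 61.6 to 84.8 FPKM, and TP63 did not pass (40.1 and 37.4 FPKM). For other cell types, the summed FPKM was, over 7 fibroblast genes, 0.853 to 1.24 in controls and 2.28 to 3.63 with dacomitinib, and over 4 endothelial genes, 1.81 to 2.20 and 10.6 to 13.5, of which CDH5 went from a mean of 1.15 to 10.0. COL1A2 and KDR were at 0 in all libraries, and VIM had 3 fragments in all controls together and 0 in the treated libraries. Of the other fibroblast genes, DCN had 11 fragments in all controls together and 584 in all treated libraries, and LUM 1 and 43. COL3A1 had 213 and 524 (log2 difference 0.56, SE 0.14, limma adjusted p = 0.0114). COL1A1 went the other way, with 143 and 107 fragments and groups that overlapped in FPKM, and PDGFRB had 1 and 3. Over 4 melanocyte genes, with TYR at 0, the sums were 1.08 to 1.42 and 1.94 to 2.40 FPKM. Over 5 immune genes they were 0.371 to 1.17 and 0.564 to 1.048 FPKM. The part of these markers in the differences below was not tested. The table heads its treated columns with a letter that the labels do not use. They were taken as dacomitinib because the other 3 match the controls by name, every direction below rests on this, and their numbers only name them.

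Of the 10 phosphatases, 8 passed the expression limit and were tested with limma on log2(FPKM + 1). The limit is on the mean over all libraries, so a gene can pass it through a single group. DUSP6 and DUSP4 passed only through the controls, with treated means of 0.353 and 0.701 FPKM. At a Benjamini-Hochberg adjusted p of 0.05 over all genes, 3 fell (DUSP6, DUSP7 and DUSP4), 3 rose (DUSP5, DUSP10 and DUSP16), and 2 did not pass (DUSP1 and DUSP9). The 6 called members are 75.0% of those tested, against 60.2% of all 13748 genes tested (25.4% higher and 34.8% lower), so a call as such was common in these data. FPKM did not overlap between the groups for 6 of the 8 members, against 67.1% of all tested genes. The median log2 difference was 0.09 over the 8 members and -0.06 over all tested genes. With TPM, 4 members rose and 3 fell, against 42.0% and 19.8% of all tested genes. With median ratio scaling 4 rose and 3 fell, against 29.8% and 30.3%. With quantile normalization 3 rose and 3 fell, against 30.4% and 28.6%, and with limma-voom on fragments 3 rose and 3 fell, against 26.5% and 36.6%. DUSP2 and DUSP8 were below the limit. In bulk samples, fewer cells of a type and less RNA per cell cannot be told apart.

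**Figure D1:**
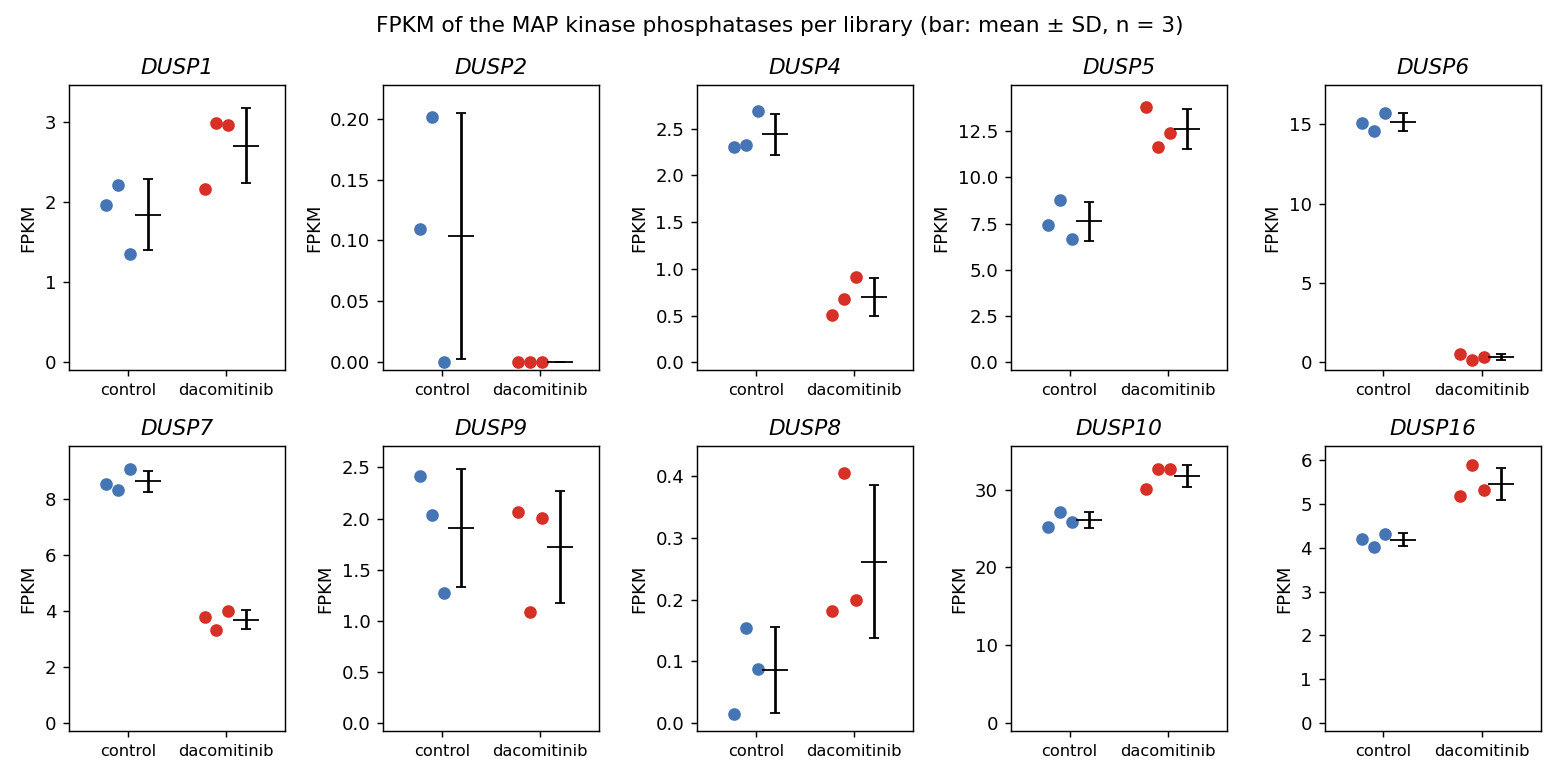
FPKM of each phosphatase gene (vertical axes, starting near 0 and scaled per gene) in the 3 control (blue) and 3 dacomitinib (red) libraries, with mean and SD as bars. DUSP6 lay at 14.6 FPKM or more in every control library and at 0.529 FPKM or less in every treated library, while DUSP1, DUSP2 and DUSP9 overlapped between groups.

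The cytoplasmic, ERK-selective group holds DUSP6, DUSP7 and DUSP9. DUSP6, which dephosphorylates ERK in the cytoplasm, was at 15.1, 14.6 and 15.7 FPKM in the 3 control libraries and at 0.529, 0.169 and 0.360 FPKM in the 3 treated libraries. All treated libraries were far below all controls, and the mean was 42.9-fold lower. Behind these values were 990, 1042 and 1070 fragments in the controls and 41, 13 and 29 with dacomitinib, so the treated level rests on few fragments. The log2 difference was -3.58 (SE 0.11, limma adjusted p = 1.56e-06), and only 6 of the 13748 tested genes had a lower one. With limma-voom on the fragments, where 1 FPKM is not added, DUSP6 fell by 5.53 on the log2 scale.

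DUSP6 (ENSG00000139318) lies on chromosome 12, 89347232 to 89353271 on the minus strand of GRCh38, where an antisense gene, AC024909.2, overlaps it by 2257 bases. That antisense gene had 12, 17 and 21 fragments in the controls and 0 in each treated library. The authors' counting is not stated to use strand, so reads of this pair cannot be told apart.

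DUSP7, a close relative of DUSP6 that also acts on ERK, was at 8.55, 8.32 and 9.07 FPKM in controls and at 3.78, 3.32 and 3.998 FPKM with dacomitinib. The groups did not overlap, and the mean was 2.34-fold lower, a log2 difference of -1.04 (SE 0.07, limma adjusted p = 4.15e-05). The decrease of DUSP7 was thus much smaller than that of DUSP6: the ratio of DUSP7 to DUSP6 within a library was 0.567, 0.571 and 0.577 in controls and 7.14, 19.6 and 11.1 with dacomitinib. A single scaling factor per library leaves this ratio as it is.

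DUSP9, the X-linked member of this group, was at 2.42, 2.03 and 1.27 FPKM in controls and at 2.07, 1.09 and 2.01 FPKM with dacomitinib. The groups overlapped across most of their range. Its log2 difference was -0.10 (SE 0.21, limma adjusted p = 0.720), and the sign turned with TPM (0.14) and without control replicate 1 (0.03) or dacomitinib replicate 2 (0.08), so no direction can be given. It had 234 fragments in all controls together and 243 in all treated libraries.

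The inducible nuclear group holds DUSP1, DUSP2, DUSP4 and DUSP5, which are products of immediate or delayed early response to growth factors and stress. DUSP4, a nuclear phosphatase of ERK and JNK, was at 2.31, 2.32 and 2.69 FPKM in controls and at 0.511, 0.681 and 0.911 FPKM with dacomitinib. Each treated library was below each control, and the mean was 3.48-fold lower. The log2 difference of -1.02 (SE 0.13, limma adjusted p = 0.000702) understates this ratio because 1 FPKM is added to a weakly expressed gene, and with limma-voom on fragments it was -1.82. DUSP4 (ENSG00000120875) is on chromosome 8, 29333064 to 29350668 on the minus strand, with 784 fragments in all controls together and 259 in all treated libraries.

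DUSP5, a nuclear phosphatase that is selective for ERK, moved in the opposite direction. It was at 7.40, 8.75 and 6.68 FPKM in controls and at 13.8, 11.7 and 12.4 FPKM with dacomitinib. All treated libraries were above all controls, and the mean was 1.66-fold higher, a log2 difference of 0.66 (SE 0.10, limma adjusted p = 0.00139). It was the largest rise among the 8 tested members, and 11.3% of all tested genes had a higher log2 difference. DUSP5 (ENSG00000138166) is on chromosome 10, 110497838 to 110511544 on the plus strand, and no other annotated gene overlaps it.

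The ratio of DUSP5 to DUSP6 within a library sets these opposite movements in 1 value that a single scaling factor per library does not move. It was 0.490, 0.600 and 0.425 in controls and 26.1, 68.9 and 34.4 with dacomitinib. On the log2 scale it was -0.999 ± 0.249 in controls and 5.31 ± 0.723 with dacomitinib (SD, n = 3), a difference of 6.31. A two-sided exact permutation test of 3 against 3 libraries gave p = 0.1, the smallest p this design allows. The pair was chosen with earlier results of these data known, and DUSP5 rose most and DUSP6 fell most among the tested members. The test is therefore no support for the difference. DUSP5 and DUSP4 also parted, from a ratio of 3.15 ± 0.643 to 19.2 ± 6.94 (SD, n = 3; described without a test).

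DUSP1, a nuclear phosphatase of p38, JNK and ERK that is also induced by stress and glucocorticoids, was at 1.96, 2.22 and 1.35 FPKM in controls and at 2.16, 2.99 and 2.96 FPKM with dacomitinib. One treated library lay within the range of the controls. The log2 difference of 0.39 (SE 0.16, limma adjusted p = 0.0703) did not pass. It passed under 3 of 15 alternatives. These were TPM (adjusted p = 0.0148), median ratio scaling (adjusted p = 0.0448) and leaving out dacomitinib replicate 1, where the adjusted p was 0.0401, and the range over its alternatives was 0.0148 to 0.180. DUSP1 had 165 fragments in all controls together and 277 in all treated libraries. The antisense gene that overlaps it, AC022217.3, had 0 in every library.

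DUSP2, best known from activated lymphocytes, had 3, 6 and 0 fragments in the controls and 0 in each treated library. A count of 0 over the 3 treated libraries allows a level of up to 0.0306 FPKM (3 fragments, counting error only). No difference can be read from so few fragments.

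The group that prefers JNK and p38 holds DUSP8, DUSP10 and DUSP16. DUSP10 was at 25.2, 27.1 and 25.8 FPKM in controls and at 30.1, 32.6 and 32.6 FPKM with dacomitinib. The groups did not overlap, but the mean was only 1.22-fold higher, a log2 difference of 0.28 (SE 0.05, limma adjusted p = 0.00334). DUSP16, which acts on JNK and p38 as well, was at 4.21, 4.02 and 4.31 FPKM in controls and at 5.18, 5.88 and 5.32 FPKM with dacomitinib. All treated libraries were higher, 1.31-fold in the mean, with a log2 difference of 0.32 (SE 0.07, limma adjusted p = 0.00535). Of the tested genes, 27.1% lay above DUSP10 and 24.7% above DUSP16, so both rises were of a common size here.

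The rises of DUSP10 and DUSP16 were tight between libraries and were called under every alternative run on them. Their size moved with the scaling, and with TPM it was 0.60 for DUSP10 and 0.66 for DUSP16, beside a median of 0.23 over all tested genes on that scale. A lincRNA gene, AC007619.1, lies within DUSP16 on the other strand and had 2 to 5 fragments per library. DUSP8, at 18 fragments over the controls and 61 over the treated libraries, had 0.0861 ± 0.0696 and 0.262 ± 0.124 FPKM (SD, n = 3). The lowest treated library, 0.181 FPKM, was above the highest control, 0.155 FPKM. In limma without the expression limit DUSP8 did not pass (log2 difference 0.21, SE 0.09, adjusted p = 0.159), and neither did DUSP2 (-0.14, SE 0.07, adjusted p = 0.218).

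**Figure D2:**
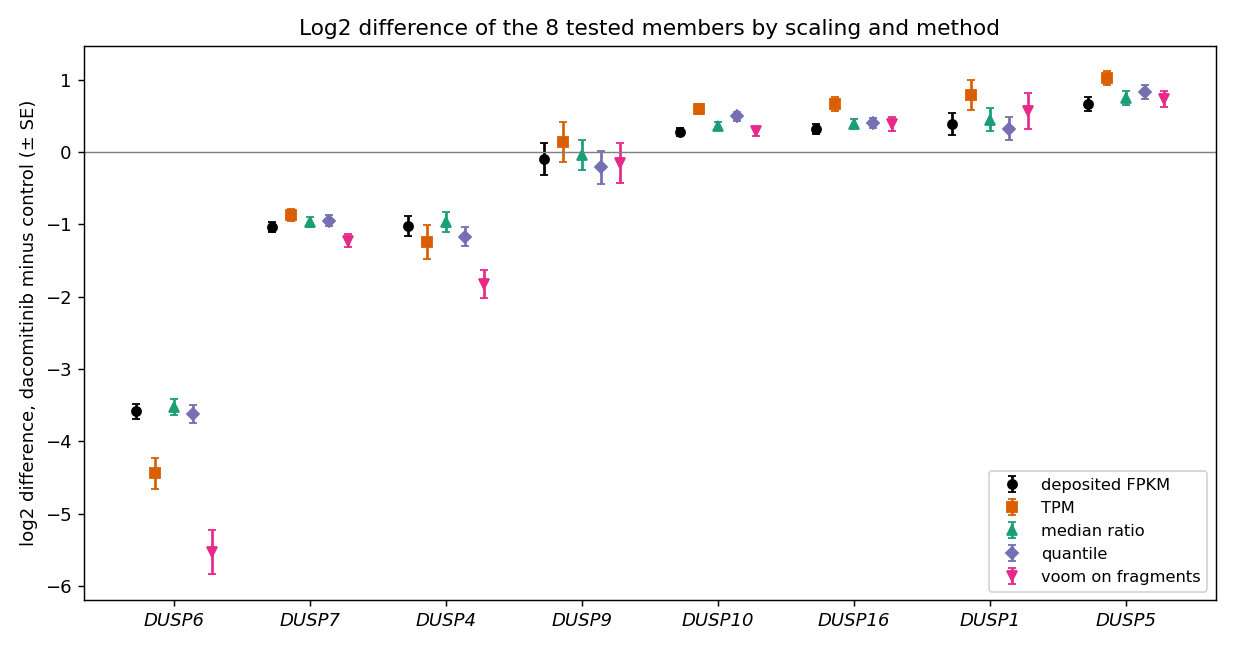
Log2 difference, dacomitinib minus control, with SE (vertical axis) for the 8 tested phosphatases under the deposited FPKM, TPM, median ratio and quantile scaling, and limma-voom on fragments. DUSP6, DUSP7 and DUSP4 were below 0 and DUSP10, DUSP16, DUSP1 and DUSP5 above 0 under all 5, while DUSP9 crossed 0 with TPM.

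FPKM is per gene length, so levels can be ordered between genes. In controls the order was DUSP10 (26.0 FPKM), DUSP6 (15.1), DUSP7 (8.65), DUSP5 (7.61), DUSP16 (4.18), DUSP4 (2.44), DUSP9 (1.91), DUSP1 (1.84), DUSP2 (0.104) and DUSP8 (0.0861). Among neighbours in that order, the ranges over libraries overlapped for DUSP7 and DUSP5, DUSP4 and DUSP9, DUSP9 and DUSP1, and DUSP2 and DUSP8. With dacomitinib DUSP10 remained first (31.8 FPKM), followed by DUSP5 (12.6), DUSP16 (5.46), DUSP7 (3.70), DUSP1 (2.70), DUSP9 (1.72), DUSP4 (0.701), DUSP6 (0.353), DUSP8 (0.262) and DUSP2 (0). There, only DUSP4 and DUSP6, and DUSP6 and DUSP8, had overlapping ranges as neighbours. DUSP6 thus went from rank 2 to rank 8.

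As a share of the summed FPKM of all 10 genes, which a single scaling factor per library does not move, the ERK-selective cytoplasmic group went from 37.8 ± 1.77% in controls to 9.73 ± 1.71% with dacomitinib (SD, n = 3). The JNK and p38 group went from 44.6 ± 0.762% to 63.2 ± 2.69%, and the inducible nuclear group from 17.6 ± 1.67% to 27.0 ± 1.098%. The shares of the 2 groups of libraries did not overlap for any of these 3 classes. DUSP10 alone made up 37.4 to 38.9% in controls and 51.6 to 55.5% with dacomitinib, and DUSP6 20.9 to 23.4% and 0.288 to 0.907%. Within the nuclear group the share of DUSP5 went from 11.2 ± 1.29% to 21.3 ± 2.05% and that of DUSP4 from 3.59 ± 0.369% to 1.18 ± 0.312%. These shares are given as a description.

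The sum itself was 67.2, 69.8 and 67.0 FPKM in controls and 58.3, 58.8 and 60.7 FPKM with dacomitinib. It was lower in every treated library (two-sided exact permutation test, p = 0.1, the smallest possible with 3 against 3; also 0.1 after Benjamini-Hochberg adjustment over this test and that of the DUSP5 to DUSP6 ratio). With TPM the direction turned, from 230.4 ± 4.47 in controls to 250.4 ± 12.1 with dacomitinib, so the total level of these transcripts cannot be called lower or higher.

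**Figure D3:**
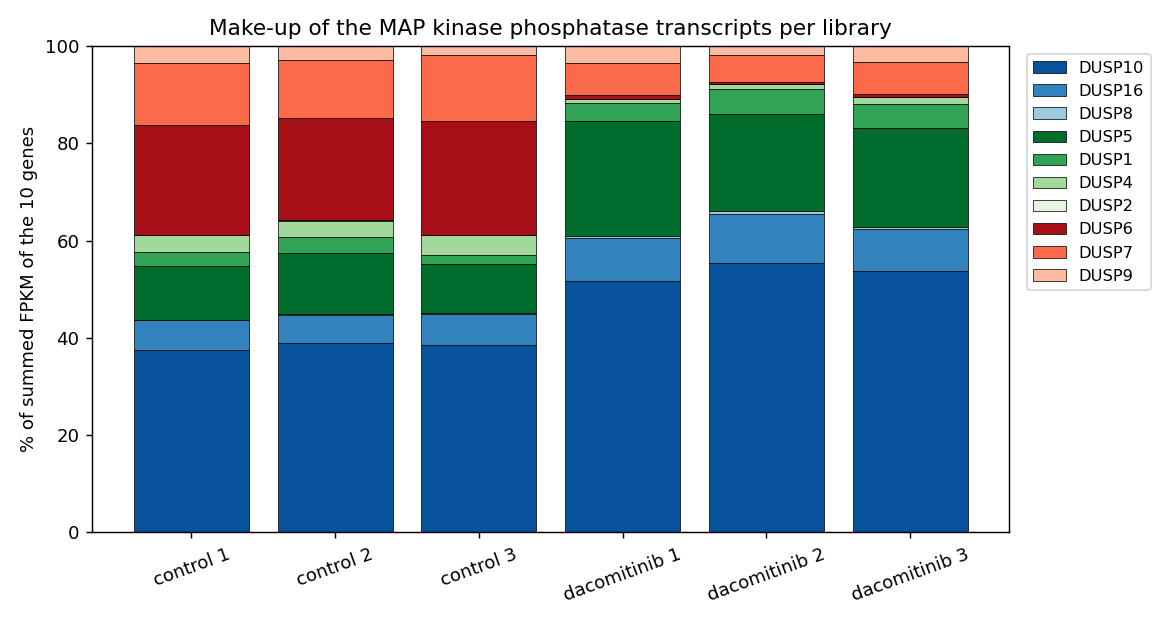
Each bar is 1 library and shows the percent of the summed FPKM of the 10 phosphatase genes held by each gene (blue shades for the JNK and p38 group, green for the inducible nuclear group, red for the cytoplasmic ERK-selective group). DUSP6 takes 20.9 to 23.4% of the control bars and 0.288 to 0.907% of the treated bars.

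Upstream sequence was examined because members that moved in opposite directions could be set side by side. RefSeq start sites (GRCh38.p14) were matched for 8 of the 10 members, with 10 starts, but not for DUSP4 and DUSP5. The 250 bases before each start were searched on both strands. The motifs were GGAA (the core of ETS factor sites), CCGGAAGT (a fuller ETS site, which contains the core), TGACGTCA (the cyclic AMP response element, CRE), TGACTCA (AP-1), CACGTG (E-box) and GTAAACA (FOXO). Windows of DUSP7, DUSP16 and DUSP1, a member that fell, one that rose and one that did not pass, are shown, with a stretch of DUSP6 that holds 3 of its GGAA matches. Capitals mark GGAA (or its complement TTCC) and TGACGTCA.
DUSP6, chr12:89352634-89352663, minus strand, 30 bases: tccggagcGGAAaTTCCtTTCCgtttttgt
DUSP7, chr3:52056572-52056821, minus strand: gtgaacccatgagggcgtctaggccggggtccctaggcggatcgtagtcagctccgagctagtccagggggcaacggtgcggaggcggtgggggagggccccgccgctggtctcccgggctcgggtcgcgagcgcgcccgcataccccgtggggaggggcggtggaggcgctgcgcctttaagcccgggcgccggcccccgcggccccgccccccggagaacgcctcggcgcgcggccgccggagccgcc
DUSP16, chr12:12562864-12563113, minus strand: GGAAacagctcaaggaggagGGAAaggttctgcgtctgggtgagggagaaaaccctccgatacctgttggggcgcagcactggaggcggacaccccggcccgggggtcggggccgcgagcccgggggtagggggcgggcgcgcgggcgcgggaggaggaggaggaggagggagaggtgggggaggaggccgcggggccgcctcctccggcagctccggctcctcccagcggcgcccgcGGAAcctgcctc
DUSP1, chr5:172771196-172771445, minus strand: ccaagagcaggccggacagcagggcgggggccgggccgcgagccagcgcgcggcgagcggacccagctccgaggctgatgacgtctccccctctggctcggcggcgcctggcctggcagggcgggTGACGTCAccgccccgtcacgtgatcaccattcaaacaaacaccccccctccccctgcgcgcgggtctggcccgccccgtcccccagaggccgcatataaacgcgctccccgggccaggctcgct

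The DUSP6 window held 6 GGAA matches, and 9.14% of the 35116 promoters in the RefSeq table held as many or more. DUSP7, which fell as well, held 0, whereas 92.7% of promoters held at least 1. DUSP16 held 3 matches, DUSP2 4, and the windows of the 2 DUSP10 starts 0 and 2. TGACGTCA was found once before DUSP1, starting 125 bases before the start, and at 2 places before DUSP8, against 1.65% of all promoters. CACGTG was found before DUSP1 and DUSP2 (6.34% of promoters). CCGGAAGT (3.42% of promoters), TGACTCA (4.20%) and GTAAACA (2.98%) were found before none of the 10 starts. The DUSP6 window lies inside the bounds of its GENCODE gene, as do the DUSP9 and DUSP10 windows with 2 GGAA matches each. The other DUSP10 window overlaps its gene in part. These windows can therefore hold transcribed sequence. Among the members with a window, the count of GGAA thus did not order them by their change. DUSP4, which fell, and DUSP5, which rose, had no window. A match is a description of letters only, and a link to the change was not tested.

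The kinases on which these phosphatases act were described next. Of 10 MAP kinase genes 9 were tested, and 7 fell and 0 rose, against 34.8% lower and 25.4% higher over all tested genes. Their median log2 difference was -0.23, and that of all genes -0.06. This count rests on the scaling, since with TPM 1 fell and 1 rose, against 19.8% lower and 42.0% higher over all genes. MAPK12, a p38 kinase, fell by 0.46 (SE 0.07, limma adjusted p = 0.00138), a call lost with TPM (adjusted p = 0.0588, the highest over its alternatives). Of 7 MAP kinase kinase genes 6 were tested, 3 fell and 0 rose (3 and 2 with TPM), beside the same shares over all genes. MAP2K1, the MEK1 gene, fell from 19.5 ± 2.36 to 12.7 ± 0.530 FPKM and MAP2K4, an activator of JNK, from 11.7 ± 0.996 to 7.72 ± 0.797 FPKM.

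Other phosphatases were counted in the same way. Of 17 atypical dual-specificity phosphatase genes, most of which lack the MAP kinase binding domain of the 10 members, 9 were tested. Of these, 3 rose and 3 fell (4 and 2 with TPM), with a median of 0.02. With 25.4% of all tested genes higher and 34.8% lower, these counts are near the background. DUSP28 rose from 1.72 ± 0.217 to 3.22 ± 0.109 FPKM and DUSP22, reported to act in JNK signalling, from 2.63 ± 0.258 to 4.31 ± 0.140 FPKM. DUSP12 fell from 12.6 ± 1.26 to 7.53 ± 0.718 FPKM and DUSP14 from 20.4 ± 1.17 to 13.2 ± 1.504 FPKM. Of 8 genes of other phosphatase families that act on MAP kinases 5 were tested, 1 rose and 2 fell (3 and 1 with TPM), also near those shares. The riser was PPM1A, a metal-dependent phosphatase, at 0.37 (SE 0.07, limma adjusted p = 0.00375). PPP2CA, a catalytic subunit of PP2A, fell from 30.3 ± 2.49 to 18.7 ± 1.25 FPKM, and PPM1D fell by 0.34 (SE 0.08, limma adjusted p = 0.0110), a call lost with TPM (adjusted p = 0.298).

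Of 18 output and feedback genes of the ERK pathway other than the phosphatases, 15 were tested, 12 fell and 1 rose, with a median log2 difference of -0.88, against 34.8% lower and 25.4% higher over all tested genes. With TPM 12 fell and 2 rose, against 19.8% lower and 42.0% higher. FPKM of ETV4, a transcription factor of the ETS family, fell from 9.01 ± 0.308 to 0.383 ± 0.127, and that of FOSL1, an AP-1 subunit, from 19.6 ± 2.49 to 2.15 ± 0.308 (SD, n = 3). Their log2 differences, -2.86 (SE 0.09) and -2.71 (SE 0.11), were the lowest in this list on the log2(FPKM + 1) scale. As a ratio of mean FPKM the order among the tested genes was another. ETV5, a further ETS factor named after its values were seen, was 37.9-fold lower (3.85 ± 0.521 to 0.102 ± 0.0262 FPKM, SD, n = 3). ETV4 was 23.5-fold and FOSL1 9.14-fold lower, beside 42.9-fold for DUSP6. Of the genes below the expression limit, ETV1 was 24.5-fold lower (128 and 6 fragments) and SPRY4 11.7-fold lower (125 and 12). SPRED3 was 3.20-fold higher (61 and 224). EPHA4, an ephrin receptor, was the tested gene that rose, from 0.373 ± 0.117 to 3.60 ± 0.422 FPKM.

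**Figure D4:**
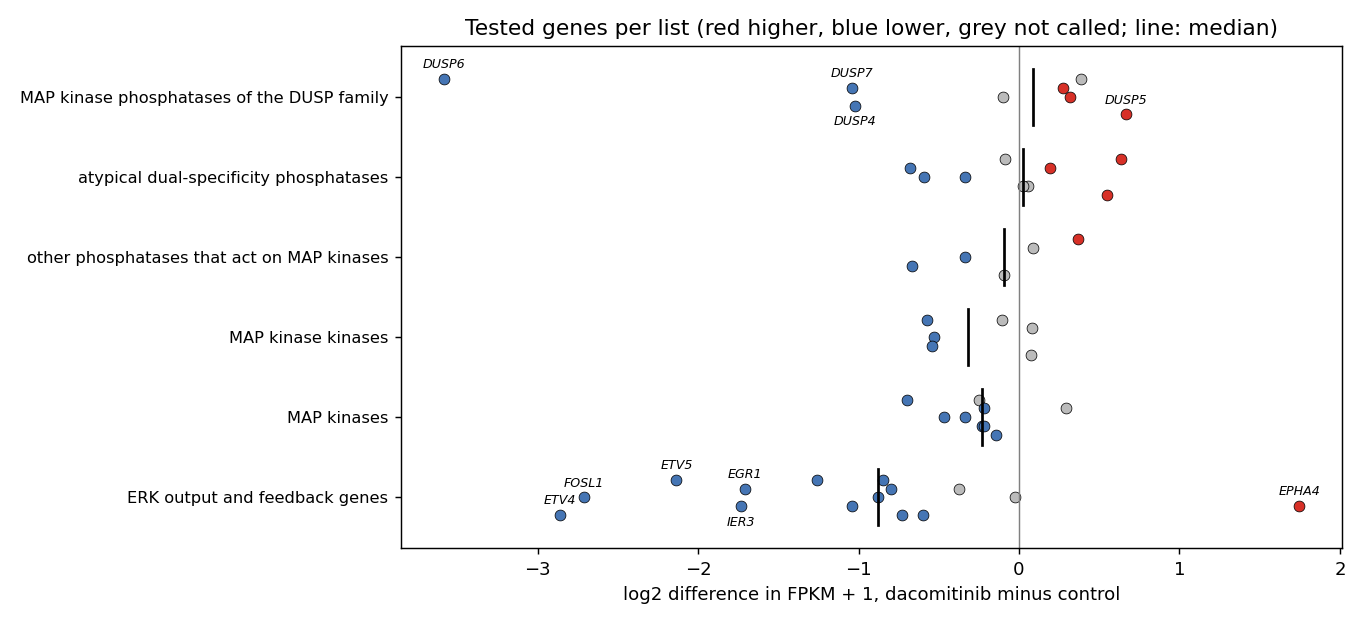
Each point is a tested gene, placed by its log2 difference in FPKM + 1 (horizontal axis, dacomitinib minus control) and by its list, with red for higher, blue for lower and grey for genes that did not pass, and a line at the list's median. The phosphatase members span -3.58 to 0.66, and the ERK output genes have the lowest median, -0.88.

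Profiles most like those of the extreme members were sought among 10621 other protein-coding genes, as the root mean square difference over the 6 libraries in log2(FPKM + 1) relative to the control mean. Nearest to DUSP6 were PLK1, a mitotic kinase (0.18), MKI67, the Ki-67 gene (0.19), TOP2A, a DNA topoisomerase (0.19), LMNB1, a nuclear lamin (0.20), and CDC45, a replication factor (0.20). Nearest to DUSP5 were TSPAN1 (0.04), CLDN1 (0.04), HIST1H2AG (0.04), CCDC28A (0.05) and PIK3R3 (0.05). This measure includes the difference between the groups, so it is not a measure of likeness within a group. The genes named beside DUSP6 also depend on the 1 FPKM that is added: their mean FPKM was 11.5-fold to 17.8-fold lower, against 42.9-fold for DUSP6. With limma-voom on fragments their log2 differences were -4.16 to -3.53, against -5.53 for DUSP6.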

How the data were processed

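The deposited table holds FPKM per gene for 6 libraries, made by the authors. The tools named in the submitters' processing notes, without their roles, are featureCounts, HISAT2, fastp, DESeq2 1.20.0 and CASAVA, with build GRCh38. Multiplied by gene length, 100% of each library's values fell on steps of 1 fragment (tolerance 0.01), which gave the fragments. The authors' library size was 0.952 ± 0.00449 times the sum of fragments in controls and 1.07 ± 0.0244 times with dacomitinib (SD, n = 3), so a scaling between libraries preceded deposit. Gene coordinates of all 10 members equal those in GENCODE release 29.

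The test was two-sided, on log2(FPKM + 1), in limma 3.58.1 under R 4.3.3 with its trend option, over genes whose mean FPKM was 1 or more, Benjamini-Hochberg adjusted over all genes tested, threshold 0.05. It was also run on simulated data, in which every gene had the same dispersion (0.0025, a measure of spread beyond counting error). Members with more spread, such as DUSP9 (SD 30.5% of its control mean), are not covered by that run. Alternatives were pseudocounts, filters, TPM, median ratio and quantile scaling, no trend, a replicate block, limma-voom on fragments and leaving out each library. Named genes are all members, in each list at most 2 called genes per direction, taken by size of change, and the 5 protein-coding genes most like the extreme members. Some genes that this rule names are not reported here. Members, lists and the pair of DUSP5 and DUSP6 were chosen with earlier results of these data known. Intervals and limits of counts cover counting error only.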

Additional observations from a re-analysis of the deposited data

How the results depend on the processing

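The calls of DUSP4, DUSP5, DUSP6, DUSP7, DUSP10 and DUSP16 held their direction and passed in every alternative in which they were tested. With a mean FPKM of at least 5, which removes weaker genes, 4 of the members were tested and 4 passed, beside 5579 of all 7681 genes tested there. DUSP6 and DUSP7 reached that limit only through the controls, since their treated means were 0.353 and 3.70 FPKM. Their calls there are therefore no further support. The number of members called was 6 to 7 when 1 library was left out, the seventh being DUSP1. The log2 difference of DUSP9 turned positive with TPM (0.14), without control replicate 1 (0.03) and without dacomitinib replicate 2 (0.0833). Over all 6 leave-one-out settings it ran from -0.26 to 0.0833. The difference in summed FPKM of the 10 genes, -8.72 as reported, was -4.74 with median ratio scaling and 20.01 with TPM. The difference of the log2 ratio of DUSP5 to DUSP6, 6.31 as reported, was 4.25 with 1 FPKM added to both.

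Over all genes, higher calls were 3493 as reported, 1946 at a mean FPKM of at least 5 (fewer genes tested) and 5779 with TPM. Lower calls were 4778 as reported and 2721 with TPM. Of the calls, 42.2% were thus higher as deposited and 68.0% with TPM, where the median of all tested genes was 0.23 against -0.06. TPM also makes the added 1 smaller beside each value.

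With a replicate block on the column numbers, 7883 genes were called against 8271 without it, and the block changed no call among the 8 phosphatases tested. Same-numbered libraries did not deviate together (correlations of deviations 0.03, -0.02 and 0.04), and no label ties the numbers to shared cultures. Low depth limits DUSP2 (9 fragments in all) and DUSP8 (79 in all).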

Other observations

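Copies of 2 members elsewhere in the genome, examined after their values were seen, also had fragments. DUSP8P5, a pseudogene of DUSP8, had 88 fragments in all controls together and 127 in all treated libraries, and DUSP8P3 had 6 and 62, against 18 and 61 for DUSP8 itself. DUSP8P5 was tested and did not pass (log2 difference 0.19, SE 0.16, limma adjusted p = 0.334), and its groups overlapped in FPKM. DUSP8P3 was at 0.0803, 0.111 and 0.0386 FPKM in controls and at 0.475, 0.651 and 0.947 FPKM with dacomitinib. DUSP5P1 had 1 and 7 fragments, beside 884 and 1673 for DUSP5. How reads shared by such copies were counted is not given in the sources used here, so the level of DUSP8 is uncertain.

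Among the MAP kinase phosphatases of other families that were below the expression limit, PTPRR, a receptor-type tyrosine phosphatase that binds ERK and p38, had 71 fragments in all controls together and 294 in all treated libraries. PTPN7, a related phosphatase best known from blood cells, had 5 and 38, and PTPN5 had 0 in every library. These genes were named after their values were seen and have no test here.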
